A study of Homo sapiens with 6 samples.

Results

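The mRNA decay genes described here are 46 genes that encode the CCR4-NOT deadenylase complex (11 genes), the PAN2-PAN3 deadenylase with PARN (3), the decapping factors with the exonuclease XRN1 (9), the core of the RNA exosome (9), its nucleases and nuclear adaptors (5) and the factors of nonsense-mediated decay, NMD (9). They were listed by gene symbol, by a rule that uses no measured value, but with earlier results of these data known. All 46 were found among the 61541 Ensembl genes of the count table, and all 46 were among the 17678 genes that passed the filter on low counts. Upon AZD4573 treatment 37 of the 46 fell and 6 rose at an adjusted p under 0.05 (quasi-likelihood test of edgeR, Benjamini-Hochberg over the genes tested), beside 37.4% lower and 37.3% higher among all genes tested. That split was on the scale of TMM (a scaling that centres most genes), and 1 of the 6 rises, that of PAN2, was kept when libraries were scaled to their mitochondrial mRNAs. The median log2 fold change of the members was -0.36, and that of all genes tested was 0.03.

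RNA-seq was performed on H9 cells, an established human T-cell lymphoma line labelled as wild type, in 3 DMSO libraries (the solvent control) and 3 AZD4573 libraries. AZD4573 is a selective inhibitor of CDK9, the kinase that phosphorylates RNA polymerase II (RNAP2) and releases it into productive elongation, and was used at 50 nM for 4 h. The labels give no time for the DMSO libraries and do not say whether the libraries came from separate cultures, so p-values measure the spread between these libraries, which may be technical. The labels name poly(A) selection and the study's methods name ribosomal RNA depletion, and which of them made these libraries cannot be told apart here. One cell line, 1 dose and 1 time were sampled, and mRNA levels were measured, not mRNA half-lives or proteins.

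In mammalian cells decay of most mRNAs begins with shortening of the poly(A) tail, first by PAN2-PAN3 and then by CCR4-NOT. The deadenylated message is then decapped by DCP2 and degraded from its 5′ end by XRN1, or degraded from its 3′ end by the exosome. NMD is the surveillance route that removes messages with premature stop codons, and it recruits the same decapping, deadenylation and degradation enzymes.

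Total counts were between 70367303 and 76571157 in the DMSO libraries and between 52101868 and 63795185 in the AZD4573 libraries. Every member was covered by at least 186 counts in each library. Of 10 T-cell markers 9 reached 1 CPM (a gene's counts scaled to the library's total), with CD3D between 142 and 196 CPM, while CD2 stayed at or below 0.17 CPM. Their summed level was between 1506 and 1532 CPM with DMSO and between 1935 and 1984 CPM with AZD4573. The myeloid list stayed under 1 CPM in sum and HBB was at 0. Of 4 stem cell markers, looked at because an unrelated stem cell line bears the same name, NANOG was at 0 in every library and POU5F1 was at 1.11 to 2.21 CPM, and the sum of the list was 1.11 to 1.57 CPM with DMSO and 1.84 to 2.40 CPM with AZD4573. MS4A1 and KRT5 stayed under 1 CPM. The B-cell gene CD79A (57.2 to 94.2 CPM), the epithelial gene EPCAM (126 to 171 CPM) and the stromal gene COL1A1 (3.39 to 7.71 CPM) were detected in every library. Their part in the results was not tested. Mitochondrially encoded mRNAs took 3.04 to 3.22% of the counts with DMSO and 4.67 to 4.98% with AZD4573.

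Reference promoters are shown for the members that fell most, EXOSC3 and CNOT6L, and for PAN2, the single member that rose by at least 1.5 times, so that the start regions of genes that moved in opposite directions can be read side by side. They are RefSeq sequences of build GRCh38.p14, written 5′ to 3′ on the strand of the gene, 300 bases each, which run from upstream of the start site to just past it. Where RefSeq lists several windows for a gene, the one nearest to the annotated gene start was taken. Capitals mark GC boxes (GGGCGG or its complement CCGCCC) and CCAAT boxes (CCAAT or its complement ATTGG). The windows are chr9:37785043-37785342 for EXOSC3, chr4:77819319-77819618 for CNOT6L and chr12:56333951-56334250 for PAN2, all on the minus strand. The EXOSC3 window lies well inside the gene model used here for spans and exons, whose annotated start is at chr9:37832117.
EXOSC3: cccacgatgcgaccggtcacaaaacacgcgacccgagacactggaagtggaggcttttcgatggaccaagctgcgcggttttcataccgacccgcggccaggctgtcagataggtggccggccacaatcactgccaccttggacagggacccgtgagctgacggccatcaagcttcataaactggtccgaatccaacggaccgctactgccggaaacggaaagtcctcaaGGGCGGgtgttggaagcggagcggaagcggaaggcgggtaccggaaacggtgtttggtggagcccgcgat
CNOT6L: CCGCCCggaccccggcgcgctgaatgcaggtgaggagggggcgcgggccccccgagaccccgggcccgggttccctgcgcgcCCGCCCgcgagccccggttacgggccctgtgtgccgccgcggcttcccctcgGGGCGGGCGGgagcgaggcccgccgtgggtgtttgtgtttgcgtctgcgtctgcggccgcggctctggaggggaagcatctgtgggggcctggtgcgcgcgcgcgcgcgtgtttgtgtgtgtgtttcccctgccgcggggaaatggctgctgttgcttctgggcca
PAN2: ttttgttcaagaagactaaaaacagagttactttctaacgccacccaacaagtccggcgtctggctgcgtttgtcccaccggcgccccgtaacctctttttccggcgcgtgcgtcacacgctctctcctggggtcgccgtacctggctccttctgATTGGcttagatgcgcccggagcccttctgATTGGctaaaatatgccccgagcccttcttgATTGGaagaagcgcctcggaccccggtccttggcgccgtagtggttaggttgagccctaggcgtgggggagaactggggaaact
EXOSC3 held 1 GC box, CNOT6L held 4 matches of which a pair overlapped, and PAN2 held 3 CCAAT boxes and no GC box, although the other RefSeq window of PAN2, which overlaps this one, does hold a GC box. RefSeq windows were matched for 41 of the 46 members (59 windows). A GC box was found in 81.4% of them, against 64.2% of the 16356 promoters of tested genes and 45.0% of all 35116 promoters. The YY1 core AAGATGG was found in 16.9% of member windows, against 6.96% for tested genes and 5.84% for all promoters. CCAAT was found in 32.2%, against 34.6% both for tested genes and for all promoters, and TATAAA in 1.70%, against 6.61% and 11.5%. The E-box CACGTG (6.78%, against 9.22% for tested genes and 7.26% of all promoters), the ETS core CCGGAAG (13.6%, against 16.4% and 10.3%) and the NRF1 site (1.70%, against 1.93% and 1.24%) were searched in the same way, on both strands. These are matches of letters and do not show that a factor binds.

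Of the 46 members, 15 fell by at least 1.5 times at an adjusted p under 0.05, beside 23.7% of all genes tested, and 1 rose by at least 1.5 times, beside 22.7%. CNOT1, at 1.49 times lower, was just outside this threshold, and CNOT10, at 1.56 times lower, was just inside it. Every AZD4573 library was below every DMSO library for 36 members, beside 38.7% of all genes tested, and above every DMSO library for 6 members, beside 39% of them. Fewer cells and less RNA per cell cannot be told apart in such bulk libraries, and a value is a share of each library's counts. The 3 members that did not pass the test were DCP2, EDC3 and EXOSC7, which were lower when libraries were scaled to their totals alone (edgeR adjusted p = 0.014, 0.0066 and 0.0068). When each library was set against the DMSO mean, the median over the 46 members was -0.34, -0.36 and -0.38 on the log2 scale in the AZD4573 libraries and between -0.004 and 0.003 in the DMSO libraries, while the median over all genes tested was between 0.01 and 0.02 in the AZD4573 libraries.

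**Figure D1:**
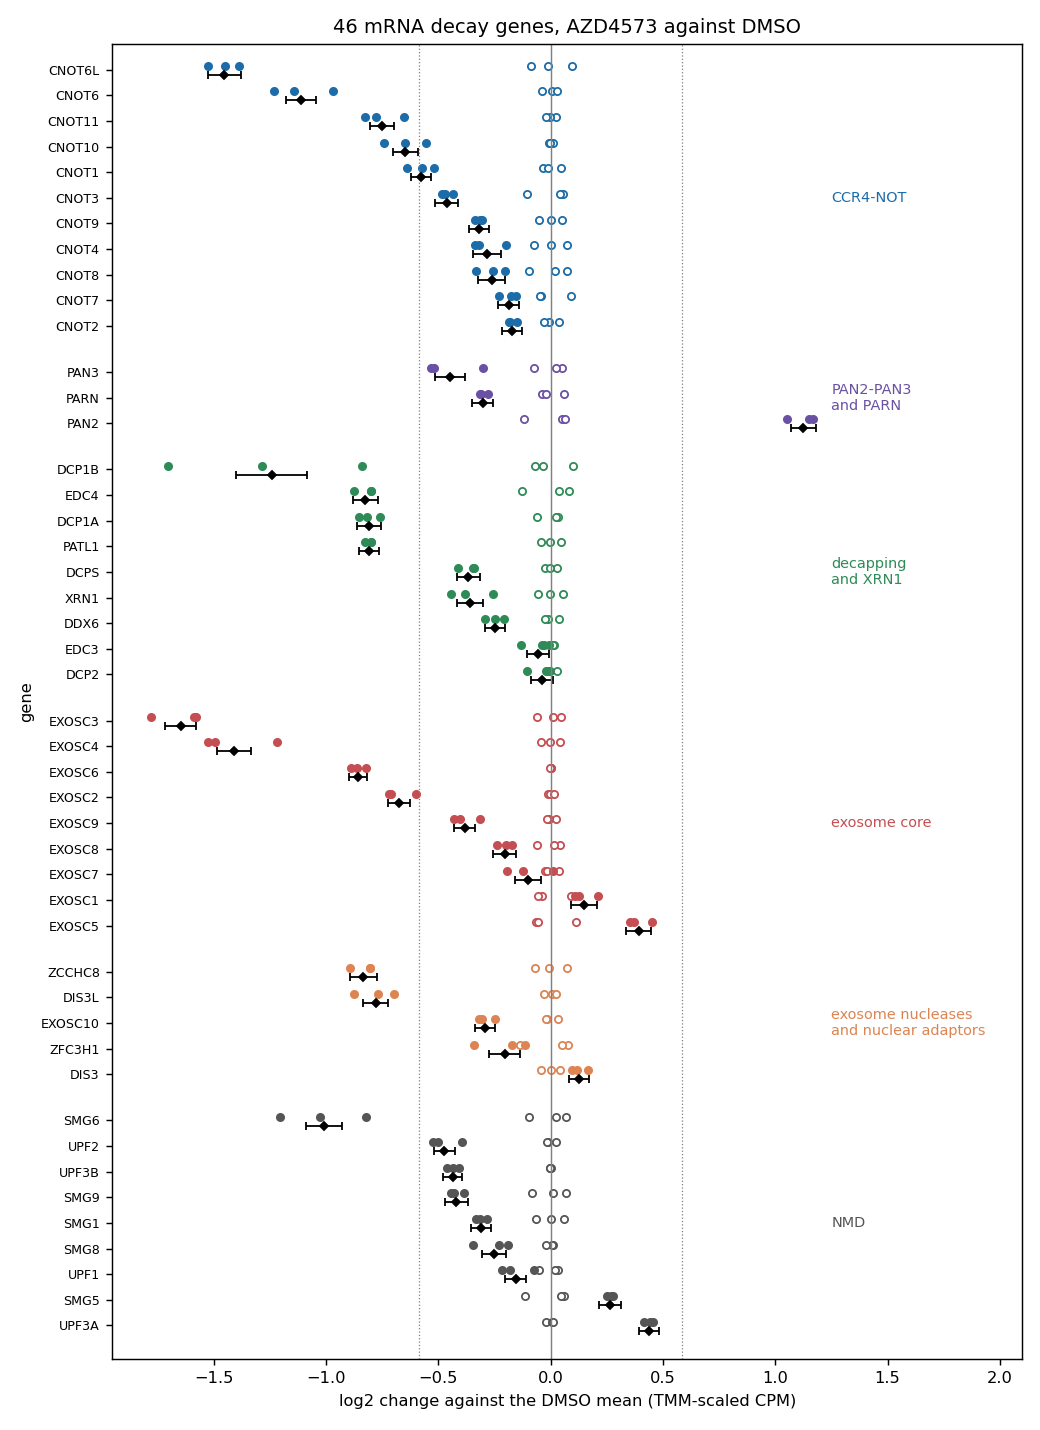
Log2 change of each of the 46 mRNA decay genes against its DMSO mean, grouped by complex (y axis, genes; x axis, log2 scale of TMM-scaled CPM). Open circles are the 3 DMSO libraries, filled circles the 3 AZD4573 libraries, diamonds the edgeR log2 fold change with its standard error, and dotted lines a change of 1.5 times. The filled circles of PAN2 stand alone beyond the dotted line on the right, and those of EXOSC3, CNOT6L and EXOSC4 lie farthest to the left.

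All 11 genes of CCR4-NOT fell on the scale of TMM, beside 37.4% of all genes tested. Their log2 fold changes were from -1.45 to -0.17, with a median of -0.46. In each of them every AZD4573 library was below every DMSO library, beside 38.7% of all genes tested. The complex holds nucleases of a pair of families, the CCR4 type (CNOT6 and its paralogue CNOT6L) and the CAF1 type (CNOT7 and its paralogue CNOT8), around the scaffold CNOT1. CNOT6L stood at 26.3, 23.2 and 24.4 CPM in the DMSO libraries and at 9.43, 9.04 and 8.55 CPM in the AZD4573 libraries, a log2 fold change of -1.45 (standard error 0.0733, edgeR adjusted p = 1e-09). CNOT6 stood at 43.7, 44.4 and 42.4 CPM and fell to 22.2, 19.7 and 18.5 CPM (log2 fold change -1.11, standard error 0.0667, edgeR adjusted p = 4.7e-09). The highest treated library of either CCR4-type nuclease was thus well below the lowest control library.

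The CAF1-type nucleases fell by much less. CNOT7 was at 147, 134 and 134 CPM with DMSO and at 125, 118 and 122 CPM with AZD4573 (log2 fold change -0.19, standard error 0.048, edgeR adjusted p = 0.0031). CNOT8 was at 43.6, 45.3 and 40.2 CPM with DMSO and at 36.1, 34.2 and 37.4 CPM with AZD4573 (log2 fold change -0.26, edgeR adjusted p = 0.0013). In both genes the groups were separate but close.

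Of the other CCR4-NOT subunits, CNOT10 and CNOT11, which form a module at the amino-terminal end of the scaffold, fell by at least 1.5 times. CNOT11 went from 80.0, 78.5 and 77.5 CPM to 50.1, 45.9 and 44.4 CPM (log2 fold change -0.75, standard error 0.0527, edgeR adjusted p = 2.2e-08), and CNOT10 from 62.6, 61.9 and 62.0 CPM to 42.4, 37.2 and 39.7 CPM (log2 fold change -0.65, edgeR adjusted p = 1.3e-07). No treated library of this module reached a control library. The scaffold CNOT1 (-0.58), CNOT3 (-0.46) and CNOT9 (-0.32), which binds the adaptor proteins that bring CCR4-NOT to its targets, followed on the log2 fold change scale. The smallest falls were those of the ubiquitin ligase CNOT4 (-0.28) and of CNOT2 (-0.17), which pairs with CNOT3 (edgeR adjusted p = 0.0035).

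Levels of different genes were compared per kb of merged exons, a length that counts every annotated exon of a gene and so lowers the value of genes with long or many alternative exons. On that scale CNOT11 was the highest CCR4-NOT subunit with DMSO (29.1 CPM per kb) and CNOT6L the lowest (2.63 CPM per kb), a span of 11.1 times. With AZD4573 CNOT9 was the highest (19.99 CPM per kb) and CNOT6L was again the lowest (0.963 CPM per kb), a span of 20.8 times. CNOT6 passed from the eighth to the tenth place of the 11.

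**Figure D2:**
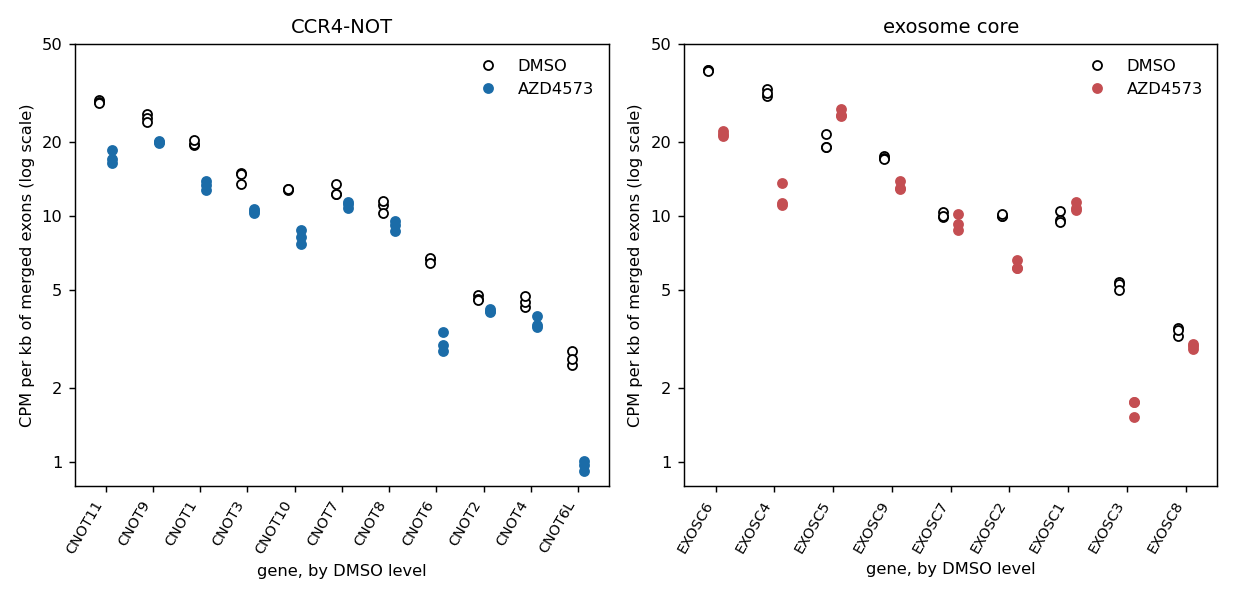
Level of each subunit of CCR4-NOT (left) and of the exosome core (right) in CPM per kb of merged exons (y axis, log scale), ordered by the DMSO mean (x axis). Points are the 3 DMSO (open) and 3 AZD4573 (filled) libraries. CNOT6L and EXOSC3 are the lowest points of their complexes with AZD4573, and EXOSC5 is the highest filled set of the exosome core.

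The other deadenylases moved in both directions, under the TMM and the mitochondrial scaling alike. PAN2, the catalytic subunit of PAN2-PAN3, stood at 57.3, 64.4 and 65.0 CPM with DMSO and at 129, 140 and 138 CPM with AZD4573 (log2 fold change 1.12, standard error 0.0558, edgeR adjusted p = 8.6e-10). Every treated library of PAN2 was thus far above every control library. Its partner PAN3, which carries PAN2 to the poly(A) tail, went the other way, from 51.9, 56.6 and 55.5 CPM to 44.4, 38.2 and 37.8 CPM (log2 fold change -0.45, edgeR adjusted p = 3.1e-05). PARN, a separate poly(A) nuclease best known for trimming small noncoding RNAs, fell with a log2 fold change of -0.30 (edgeR adjusted p = 4.9e-05). Of the annotated exon bases of PAN2, 19.5% are shared with the antisense gene CNPY2-AS1, which had 2.99 CPM with DMSO and a log2 fold change of 0.03. Reads from opposite strands cannot be told apart where they overlap, since RSEM at its default settings does not use strand. The next gene, CNPY2, lies 104 bp downstream on the same strand and had a log2 fold change of 0.46, and IL23A, 121 bp upstream on the opposite strand, had one of -0.40.

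Among the decapping factors, the decapping enzyme and its cofactors had unlike values. DCP2, the enzyme that removes the cap, had a log2 fold change of -0.04 (standard error 0.0487, edgeR adjusted p = 0.47), with 55.3 to 57.2 CPM in the DMSO libraries and 52.1 to 56.1 CPM in the AZD4573 libraries. EDC3, an enhancer of decapping, had one of -0.06 (standard error 0.0486, edgeR adjusted p = 0.3). The groups of DCP2 and EDC3 overlapped on the scale of TMM. Under the mitochondrial scaling their log2 fold changes were -0.78 and -0.80, beside a median of -0.71 over all genes tested.

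The activators that surround DCP2 fell. EDC4, the large scaffold of the decapping complex, went from 182, 210 and 204 CPM to 114, 114 and 108 CPM (log2 fold change -0.82, standard error 0.0542, edgeR adjusted p = 1.1e-08). PATL1, which links deadenylation to decapping, went from 103, 109 and 105 CPM to 60.8, 59.7 and 60.8 CPM (log2 fold change -0.81, edgeR adjusted p = 2.2e-09). DCP1A, a direct activator of DCP2, went from 47.8, 50.98 and 50.6 CPM to 28.3, 29.5 and 27.6 CPM (log2 fold change -0.81, edgeR adjusted p = 1.2e-08). In each of these genes the groups were separate. DCP1B, the paralogue of DCP1A and the lowest member of all per kb (2.15 CPM per kb with DMSO), went from 10.6, 9.44 and 9.67 CPM to 5.54, 4.07 and 3.05 CPM. Its log2 fold change was -1.24 with the widest standard error of the members, 0.159 (edgeR adjusted p = 8.8e-06). The helicase DDX6 (-0.25), XRN1 (-0.36) and DCPS (-0.37), the scavenger enzyme that hydrolyses the cap left after decay, fell by less than 1.5 times.

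The 9 core subunits of the exosome, a ring of 6 proteins under a cap of 3, spanned the widest range of log2 fold changes of any group, from -1.65 to 0.39. In the cap, EXOSC3 went from 41.4, 40.4 and 38.4 CPM to 13.4, 13.4 and 11.7 CPM, the largest fall of the 46 genes (log2 fold change -1.65, standard error 0.0675, edgeR adjusted p = 1.9e-10). Of the exon bases of EXOSC3, 9.27% are shared with other protein-coding genes. Their log2 fold changes were -3.19 (an unnamed gene model on the same strand, 3.05 CPM with DMSO), -0.60 (TRMT10B) and 0.43 (DCAF10). EXOSC2 went from 85.5, 86.1 and 87.3 CPM to 57.03, 52.5 and 52.8 CPM (log2 fold change -0.67, edgeR adjusted p = 2.5e-08). EXOSC1, the remaining cap subunit, rose, with 33.9 to 37.5 CPM under DMSO and 38.0 to 40.8 CPM under AZD4573 (log2 fold change 0.15, edgeR adjusted p = 0.032, and -0.59 under the mitochondrial scaling). That rise did not pass the test when any of AZD4573 replicate 3, DMSO replicate 2 or DMSO replicate 3 was left out (largest edgeR adjusted p = 0.16).

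The ring is built of 3 heterodimers, EXOSC4 with EXOSC9, EXOSC6 with EXOSC7 and EXOSC5 with EXOSC8, and in each the partners had unlike values. EXOSC4 went from 45.3, 42.7 and 43.9 CPM to 18.9, 15.3 and 15.6 CPM (log2 fold change -1.41, standard error 0.0755, edgeR adjusted p = 1.7e-09), and EXOSC9 had a log2 fold change of -0.38 (edgeR adjusted p = 5.8e-06). EXOSC6, a gene of 1 exon, went from 202, 202 and 201 CPM to 114, 111 and 109 CPM (log2 fold change -0.86, standard error 0.0398, edgeR adjusted p = 4.9e-10), and EXOSC7 had a log2 fold change of -0.10 (edgeR adjusted p = 0.14). EXOSC7 passed the test without AZD4573 replicate 3 (edgeR adjusted p = 0.024), and its log2 fold change was -0.84 under the mitochondrial scaling. EXOSC5 rose from 79.8, 70.5 and 70.9 CPM to 95.4, 94.2 and 101 CPM (log2 fold change 0.39, edgeR adjusted p = 2.2e-05, and -0.35 under the mitochondrial scaling), and EXOSC8 fell (log2 fold change -0.20, edgeR adjusted p = 0.0027).

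As a description, the log2 ratio of EXOSC4 to EXOSC9 within a library was -0.88 ± 0.0282 (SD, n = 3) with DMSO and -1.91 ± 0.114 (SD, n = 3) with AZD4573. That of EXOSC6 to EXOSC7 was 2.18 ± 0.0307 and 1.42 ± 0.125, and that of EXOSC5 to EXOSC8 was 0.73 ± 0.153 and 1.33 ± 0.0383. These ratios were formed after the values had been seen and were not tested. For EXOSC4, 61.7% of the exon bases are shared with other annotated genes, mostly with a further protein-coding gene model on the same strand, so its counts are uncertain. Per kb, EXOSC6 was the highest core subunit with DMSO (39.0 CPM per kb) and EXOSC8 the lowest (3.40), a span of 11.5 times. With AZD4573 EXOSC5 was the highest (26.1 CPM per kb) and EXOSC3 the lowest (1.67), a span of 15.6 times.

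The catalytic subunits of the exosome are DIS3 and EXOSC10 in the nucleus and DIS3L in the cytoplasm. DIS3L went from 52.8, 51.5 and 53.5 CPM to 32.4, 28.7 and 30.9 CPM (log2 fold change -0.78, standard error 0.056, edgeR adjusted p = 2.7e-08). DIS3 was at 78.7, 76.6 and 74.3 CPM with DMSO and at 81.7, 85.9 and 83.1 CPM with AZD4573 (log2 fold change 0.13, edgeR adjusted p = 0.021, and -0.61 under the mitochondrial scaling), a small rise that did not pass the test without AZD4573 replicate 2, DMSO replicate 2 or DMSO replicate 3 (largest edgeR adjusted p = 0.14). EXOSC10 fell with a log2 fold change of -0.29, and 39.1% of its exon bases are shared with other genes.

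Of the nuclear adaptors, ZCCHC8 is the scaffold of the NEXT complex, which brings short noncoding and promoter-derived RNAs to the exosome, and ZFC3H1 is the scaffold of the PAXT connection, which brings polyadenylated nuclear RNAs to it. ZCCHC8 went from 31.4, 34.6 and 32.8 CPM to 18.8, 18.9 and 17.7 CPM (log2 fold change -0.83, edgeR adjusted p = 3.2e-08), with separate groups. ZFC3H1 was at 44.5, 51.6 and 50.6 CPM with DMSO and at 38.6, 43.4 and 45.2 CPM with AZD4573, and here the groups overlapped (log2 fold change -0.20, edgeR adjusted p = 0.018). Its call was lost without AZD4573 replicate 1 or DMSO replicate 2 (largest edgeR adjusted p = 0.069).

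Of the 9 NMD factors, 7 fell and 2 rose on the scale of TMM, beside 37.4% lower and 37.3% higher among all genes tested. The 2 rises were not kept under the mitochondrial scaling. UPF1, the central helicase of the pathway, fell by little, from 227, 240 and 238 CPM to 203, 223 and 208 CPM (log2 fold change -0.16, edgeR adjusted p = 0.0078), and its partner UPF2 had a log2 fold change of -0.47 (edgeR adjusted p = 7.8e-07). UPF3B and UPF3A, paralogues that link UPF2 to the exon junction complex, moved in opposite directions on the scale of TMM. UPF3B went from 92.5, 92.1 and 92.2 CPM to 68.2, 67.0 and 69.5 CPM (log2 fold change -0.44, edgeR adjusted p = 5.9e-07). UPF3A went from 47.8, 48.8 and 48.9 CPM to 66.0, 66.5 and 64.8 CPM (log2 fold change 0.44, edgeR adjusted p = 9.8e-07, and -0.30 under the mitochondrial scaling). With both changes the raw counts of UPF3A and UPF3B were close with AZD4573. Per kb of merged exons UPF3A was still lower with AZD4573, at 11.4 CPM per kb against 27.0 for UPF3B.

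SMG6 is the endonuclease that cuts NMD targets, and SMG5 acts in the other branch, which recruits decapping and deadenylation. SMG6 went from 81.9, 88.9 and 91.7 CPM to 49.6, 43.0 and 38.0 CPM (log2 fold change -1.01, standard error 0.0798, edgeR adjusted p = 7.1e-08). SMG5 went from 162, 183 and 181 CPM to 212, 212 and 208 CPM (log2 fold change 0.27, edgeR adjusted p = 0.00024, and -0.47 under the mitochondrial scaling). The groups were separate in both genes. Of the exon bases of SMG6, 24.7% are shared with other genes, 2419 of them with HIC1 on the opposite strand, which had 91.8 CPM with DMSO and a log2 fold change of -1.96. Reads of SMG6 and HIC1 cannot be told apart there.

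The kinase that phosphorylates UPF1, SMG1, fell with a log2 fold change of -0.31, and its 7 annotated pseudogenes held counts equal to 49.4% of its own, so its value is uncertain. SMG8 and SMG9 are the regulators that hold this kinase in check. SMG8 was at 44.03, 43.9 and 43.1 CPM with DMSO and at 34.4, 38.3 and 37.3 CPM with AZD4573 (log2 fold change -0.25, edgeR adjusted p = 0.00083). SMG9 was at 66.2, 73.5 and 70.5 CPM with DMSO and at 51.5, 53.7 and 51.97 CPM with AZD4573 (log2 fold change -0.42, edgeR adjusted p = 5.4e-06).

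**Figure D3:**
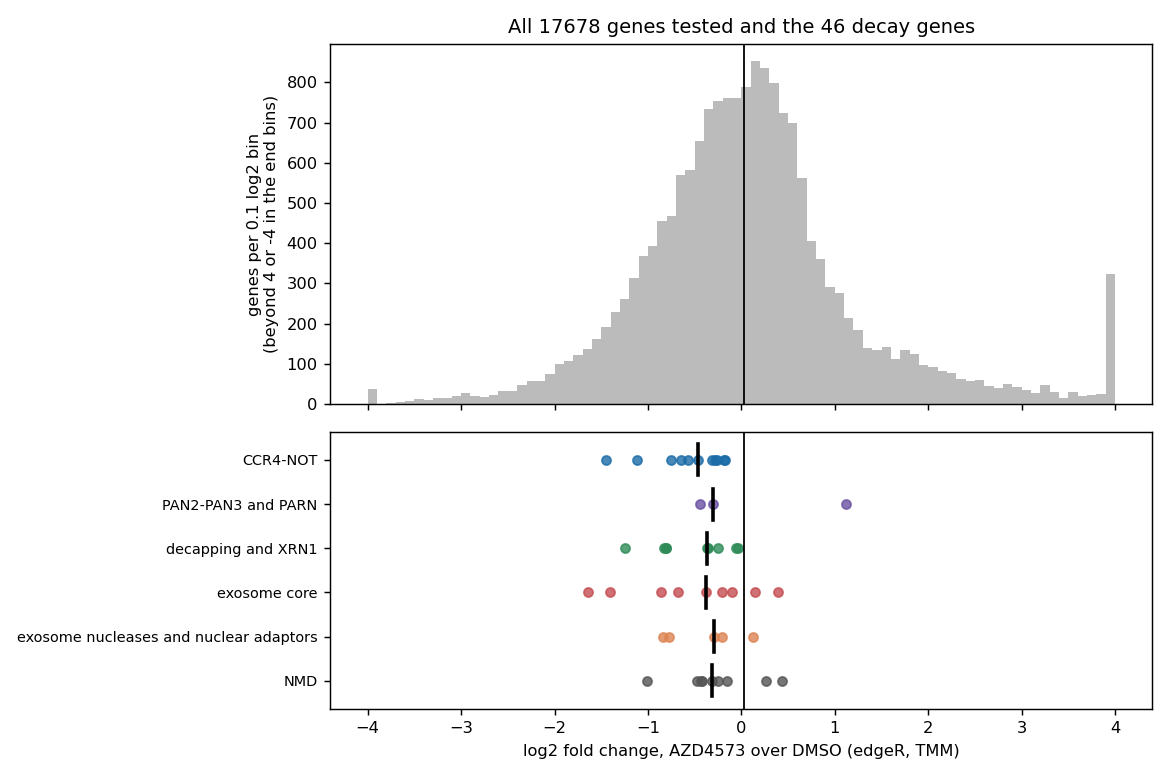
Distribution of the log2 fold changes of all genes tested (top; y axis, genes per bin of 0.1) and of the 46 decay genes by complex (bottom; points are genes, short bars are medians). The vertical line is the median of all genes, 0.03. The short bars of all 6 groups lie to its left, between -0.46 and -0.29, and PAN2 is the point farthest to the right.

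Relative to the median of all genes, the median log2 fold change was -0.49 for CCR4-NOT, -0.41 for the exosome core, -0.39 for decapping and XRN1, -0.34 for NMD, -0.33 for PAN2-PAN3 and PARN, and -0.32 for the exosome nucleases and nuclear adaptors. The number of members that fell by at least 1.5 times was 4 of 11, 4 of 9, 4 of 9, 1 of 9, 0 of 3 and 2 of 5 in the same order, beside 23.7% of all genes tested, and with so few genes in a group nothing is read from these counts. Whether the groups differ from each other was not tested. Within a group the genes differed by more than the medians of the groups did. Leaving out the members that share at least 10% of their exon bases with other genes or have pseudogenes with at least 5% of their counts, a choice made after the data were seen, left 33 members. Of these 28 fell and 4 rose, beside 37.4% lower and 37.3% higher among all genes tested. By at least 1.5 times 12 fell, beside 23.7% of all genes tested. None rose by that much, beside 22.7% of all genes tested, since PAN2 was among those left out. Of those left out, EDC4 shares 21.3% of its exon bases, CNOT7 18.8%, EXOSC8 16.3%, EDC3 13.8%, EXOSC7 13.6%, CNOT1 12.5%, SMG8 11.3% and DIS3 10.9%.

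A ratio of the counts of a pair of genes within a library does not depend on how libraries are scaled. The 9 pairs of paralogues and partners were chosen with earlier results known. Among single genes tested, every AZD4573 library was below every DMSO library for 38.7% and above for 39%. No such share was computed over other pairs of genes. The ratios of 7 of the 9 pairs did not overlap between the groups. With 3 libraries against 3 the exact two-sided permutation test cannot go below 0.10, which these 7 pairs reached (0.129 after Benjamini-Hochberg adjustment over the 9 pairs). The log2 ratio of PAN2 to PAN3 was 0.19 ± 0.0428 (SD, n = 3) with DMSO and 1.76 ± 0.191 (SD, n = 3) with AZD4573, a change of 2.98 times. That of SMG5 to SMG6 went from 1.00 ± 0.0328 to 2.28 ± 0.181, a change of 2.43 times.

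Among the paralogues, the log2 ratio of DIS3 to DIS3L went from 0.54 ± 0.0582 to 1.45 ± 0.126 and that of UPF3A to UPF3B from -0.93 ± 0.0206 to -0.05 ± 0.0453, changes of 1.87 and 1.83 times. CNOT6 to CNOT6L changed by 1.26 times, with a log2 ratio of 0.82 ± 0.106 and 1.16 ± 0.067. The ratio of CNOT7 to CNOT8 overlapped between the groups (1.69 ± 0.103 and 1.76 ± 0.0457, exact permutation p = 0.3), as did that of DCP1A to DCP1B (2.33 ± 0.142 and 2.80 ± 0.418, exact permutation p = 0.3). Among the partners, ZCCHC8 to ZFC3H1 went from -0.57 ± 0.0592 to -1.19 ± 0.159. SMG8 to SMG9 went from -0.68 ± 0.0812 to -0.52 ± 0.0585, with DMSO replicate 1 and AZD4573 replicate 1 nearly meeting at -0.59 and -0.58.

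**Figure D4:**
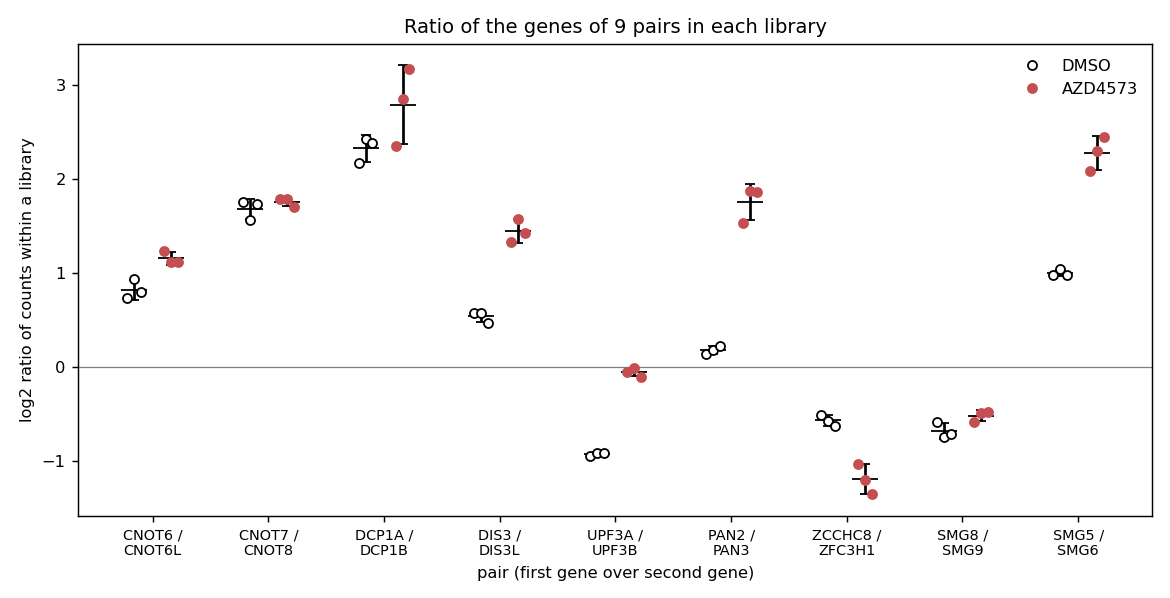
Log2 ratio of counts within each library (y axis) for 9 pairs of decay genes (x axis, first gene over second). Points are libraries, and bars are the mean and SD of 3 libraries. PAN2 over PAN3 and SMG5 over SMG6 show the widest gaps between DMSO (open) and AZD4573 (filled), and the points of CNOT7 over CNOT8 and DCP1A over DCP1B overlap.

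The directions of the small rises depended on the scale. When libraries were scaled to their mitochondrially encoded mRNAs, which RNAP2 does not transcribe, the median of all genes moved from 0.03 to -0.71 and each member moved by -0.74 to -0.73 on the log2 scale. On that scale 45 members were lower, beside 67.2% of all genes tested, and 1 was higher, beside 12.1%. PAN2 was still higher, with a log2 fold change of 0.38 (edgeR adjusted p = 2.6e-05). UPF3A (-0.30), EXOSC5 (-0.35), SMG5 (-0.47), EXOSC1 (-0.59) and DIS3 (-0.61), which rose on the scale of TMM, had negative values. Relative to the median of all genes on the same scale, the median of the members was -0.39, as on the scale of TMM. Whether mitochondrial mRNAs themselves changed was not tested.

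**Figure D5:**
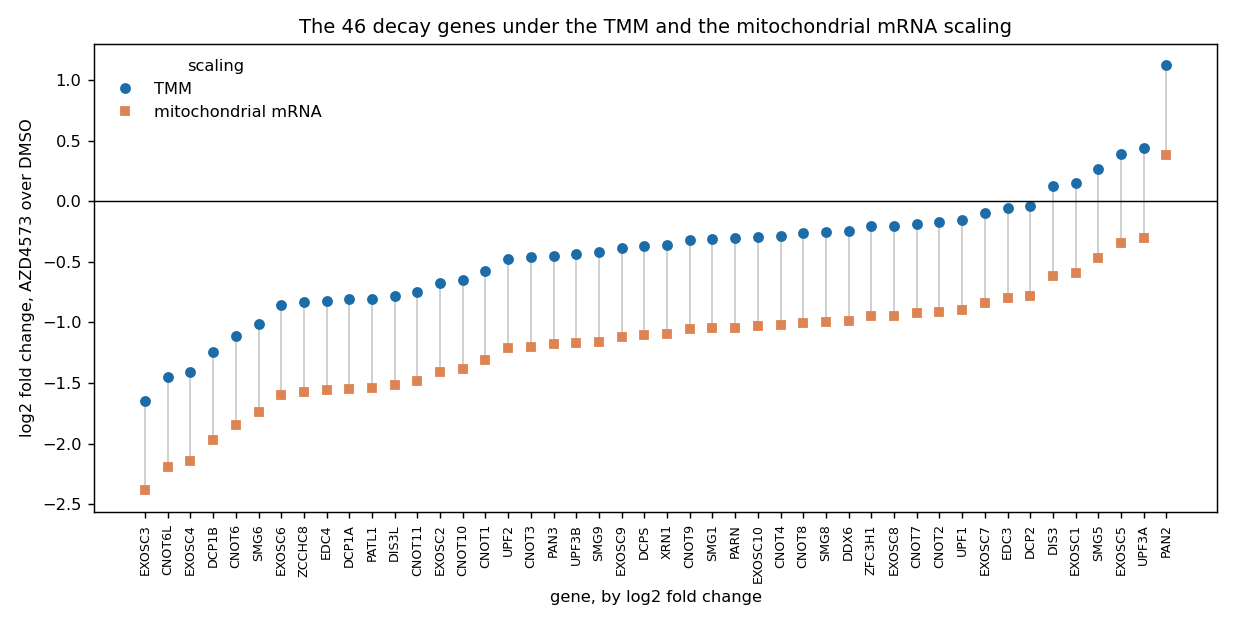
Log2 fold change of each decay gene (x axis, ordered) under the TMM scaling (circles) and under the scaling to mitochondrial mRNAs (squares). All 46 genes move down together, and PAN2 is the only gene whose square lies above 0.

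Other decay genes were listed from general knowledge of the pathway. All 43 such genes were tested. On the scale of TMM 20 fell (46.5%) and 15 rose, beside 37.4% lower and 37.3% higher among all genes tested. Their median log2 fold change was -0.04. Under the mitochondrial scaling every riser named here had a negative value except PABPC1 (0.09). Among the cofactors of the exosome 6 of 9 fell and 1 rose, with MTREX, the helicase of the nuclear exosome (-1.17), PELO, a ribosome rescue factor (-1.03), and RBM7, the RNA-binding subunit of NEXT (-0.79), the largest falls, and SKIC3 (0.12) the rise. Among the partners of NMD and the exon junction complex 6 of 8 fell, with DHX34 (-1.21) and CASC3 (-0.95) among them, and NBAS (0.38) and MAGOH (0.17) rose. Of 6 other nucleases and tailing enzymes, TUT7 (-1.75), TUT4 (-0.25) and NUDT16 (-0.25) fell and DIS3L2 (0.30) and DXO (0.23) rose. The ring of LSM proteins and the partners of decapping were split, with 4 lower (LSM1 at -0.70, LSM2 at -0.32 and EIF4ENIF1 at -0.29 among them) and 4 higher (LSM4 at 0.70, LSM14B at 0.53 and LSM3 at 0.41 among them) of 10.

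Of the 10 poly(A)-binding proteins and microRNA effectors, 6 rose and 1, AGO1 (-0.29), fell on the scale of TMM, beside 37.3% higher and 37.4% lower among all genes tested, and 8 were lower under the mitochondrial scaling. PABPC1, the main cytoplasmic poly(A)-binding protein, went from 2227, 2185 and 2157 CPM to 3794, 3895 and 4002 CPM (log2 fold change 0.83, edgeR adjusted p = 1e-09), followed by TNRC6B (0.70) and TNKS1BP1 (0.34). Of 14 known substrates of NMD 7 fell (37.4% among all genes tested), led by GADD45A (-2.66), SNHG12 (-1.49) and TBL2 (-0.87), and 3 rose (37.3% among all genes tested), ZFAS1 (0.65), EPB41L4A-AS1 (0.45) and UPP1 (0.43), which all had negative values under the mitochondrial scaling.

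The signed change of each member was set against the form of its gene. As a description over the 46 members, Spearman's rho of the log2 fold change was -0.13 with the genomic span, 0.06 with the number of merged exons, 0.10 with the merged exon length and 0.11 with the DMSO level. Over 13423 protein-coding genes tested the values were -0.03, 0.06, -0.03 and -0.20 in the same order, so that the sign for the DMSO level and for the exon length was the opposite of that in the members. The members share the same 6 libraries, and no test was made. The 15 genes that fell by at least 1.5 times had spans from 2001 bp (EXOSC4) to 243947 bp (SMG6), with a median of 40682 bp. The 6 that rose had a median span of 21024 bp and lay between 10109 and 33602 bp, and the remaining 25 had a median of 45494 bp. On build GRCh38 PAN2 lies at chr12:56316223-56334053 (minus strand), EXOSC3 at chr9:37759234-37832117 (minus strand), CNOT6L at chr4:77713387-77819615 (minus strand) and CNOT6 at chr5:180494379-180578358 (plus strand).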

How the data were processed

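RNA-seq was performed on 3 DMSO and 3 AZD4573 libraries of H9 cells, each placed in its group by its label. The authors trimmed reads with Cutadapt 2.3, used STAR 2.7.8a for alignment to GRCh38 (ENSEMBL) and deposited expected counts per gene from RSEM 1.3.3. These are whole numbers, not normalized. The annotation release is not given in the sources used here.

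Genes were kept by edgeR's filter (minimum count 10), normalized by TMM and compared across all genes by edgeR's quasi-likelihood test (edgeR 4.0.16, R 4.3.3) with Benjamini-Hochberg adjustment. CPM values are TMM-scaled, except those of markers, which use library totals. Errors after ± are SD over libraries. Standard errors of log2 fold changes were worked out from the F statistic of the quasi-likelihood test, as the absolute log2 fold change over the square root of F. Gene models were GENCODE 44 (GRCh38), promoters RefSeq (GRCh38.p14). Pair ratios were compared by exact permutation. Scripts were tested on simulated data. DESeq2 1.42.0, other scalings and filters, a replicate block and the omission of each library were alternatives.

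The members, complexes, pairs and lists were chosen with earlier results of these data known. All members could be named. Values per library are given for members past a fold change of 1.5, for members of pairs and for a few others. From each other list, the 3 largest rises and falls at an adjusted p under 0.05 are named. Some genes that met these rules are not reported here.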

Additional observations from a re-analysis of the deposited data

How the results depend on the processing

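The counts of 37 members lower and 6 higher stayed within 1.5 times under every alternative but the mitochondrial scaling, and 40 of 46 members had the same direction and the same call under all of those. The exceptions were DCP2, EDC3 and EXOSC7, which passed the test with library size only (edgeR adjusted p = 0.014, 0.0066 and 0.0068), EXOSC1 and DIS3, which did not pass it with library size only (0.47 and 0.64) or with no filter (0.18 and 0.24), and ZFC3H1, whose call was lost without either of 2 libraries. EXOSC1, DIS3 and EXOSC7 also changed calls when some libraries were left out. The mitochondrial scaling left 1 member higher, and put 42 lower by at least 1.5 times and none higher by that much. On that scale the median of all genes was -0.71, itself a fall of more than 1.5 times, so nothing is read from the 42. It reversed EXOSC1 (-0.59), EXOSC5 (-0.35), DIS3 (-0.61), UPF3A (-0.30) and SMG5 (-0.47). A fold change of at least 2 left 6 members lower. Members with few shared bases, an alternative added after seeing the data, left 0 higher by at least 1.5 times. The median of the members relative to all genes was -0.34 with at least 10 counts in every library and -0.52 with no filter, settings that change which other genes are compared. With at least 10 counts the groups were at -0.44 (CCR4-NOT), -0.35 (decapping and XRN1), -0.36 (exosome core), -0.27 (exosome nucleases and nuclear adaptors) and -0.29 (NMD). With no filter they were at -0.62, -0.52, -0.54, -0.45 and -0.47, and PAN2-PAN3 and PARN at -0.46.

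Leaving out each library in turn gave 36 to 38 members lower, 4 to 6 higher and 15 to 16 lower by at least 1.5 times. The median relative to all genes was then -0.42 to -0.37 for the members, -0.55 to -0.48 for CCR4-NOT, -0.44 to -0.40 for decapping and XRN1, -0.35 to -0.30 for the exosome nucleases and nuclear adaptors and -0.39 to -0.33 for NMD. The replicate numbers did not pair the libraries (correlations of deviations -0.00769, 0.0894 and -0.0501). With a replicate block 37 members were lower and 6 higher, and the median relative to all genes was -0.39. Every member had at least 186 counts in each library, and the effect of depth was not tested. The number of libraries, 1 line and 1 time limit these results, and shared exon bases limit EXOSC4, EXOSC10, SMG6, EDC4 and PAN2.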
